A study of Homo sapiens with 12 samples.

Results

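Ribosome biogenesis factors, the nucleolar proteins and RNA polymerase I genes that make ribosomal RNA and build it into ribosomal subunits, were followed in HPB-ALL and KOPTK1 cells. These are established cell lines of human T-lymphoblastic leukemia (T-ALL), a malignancy of T-cell precursors. The genes were taken from a fixed list of 56 symbols, and 55 of them were matched by Ensembl identifier among the 58288 genes of the deposited tables. BOP1 was not matched by identifier and was not analysed here. The rule used gene symbols and no measured value.

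RNA was sequenced from 12 libraries, 3 in each of 4 groups: HPB-ALL or KOPTK1 cells that had received a lentiviral pLKO.1 vector with an shRNA against SHQ1, or one against GFP as the control. All 4 groups had therefore been infected and kept in puromycin, and RNA was depleted of rRNA. SHQ1 is an assembly factor of H/ACA ribonucleoproteins, the particles that convert uridine to pseudouridine in other RNAs, and the study asked what its depletion does to splicing and survival in T-ALL. In the tables used here, the library columns carry only numbers that match no sample label. They were not used, so that SHQ1 shRNA was not compared with control shRNA, the knockdown itself was not checked, and no depth or replicate spread is given. Each level below is 1 value per line, the authors' average over the 6 libraries of both shRNA groups, and it has no error.

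A ribosome starts in the nucleolus, where RNA polymerase I copies the rDNA repeats into a long precursor. A large assembly called the small subunit processome folds and cuts the part that becomes 18S rRNA, whereas other factors build the large subunit around 28S, 5.8S and 5S rRNA. RNA helicases, GTPases and scaffold proteins drive these steps, and small nucleolar RNAs (snoRNAs) guide cleavage and modification of the precursor. The factors are required in all growing cells, and many of their genes are known targets of the MYC transcription factor, a major oncogene of T-ALL.

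Both lines showed their labelled origin. The 8 T-cell markers examined had a mean RPKM (reads scaled by library size and by kilobases of exon) from 2.53 to 295 in HPB-ALL and from 4.32 to 301 in KOPTK1, with PTCRA the lowest and CD3D the highest. Of 11 markers of B, myeloid, erythroid and epithelial cells, 9 in HPB-ALL and 8 in KOPTK1 were below 1. The others stayed at or below 2.12 except CD79A, a B-cell receptor component, which had 43.3 in HPB-ALL and 16.1 in KOPTK1. SHQ1 itself had a mean RPKM of 59.5 in HPB-ALL and 43.3 in KOPTK1, and MYC one of 71.9 and 86.4.

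Every matched factor was expressed in both lines. The mean RPKM ranged from 9.52 to 242 in HPB-ALL, with a median of 26.2, and from 8.46 to 215 in KOPTK1, with a median of 21.5. A mean RPKM of at least 10 was reached by 54 of the 55 genes in HPB-ALL, where 34.3% of all 19677 protein-coding genes reached it, and by 50 in KOPTK1, where 34% did. By rank among protein-coding genes, 22 of the 55 were in the top 10% in HPB-ALL and 16 in KOPTK1, and none was lower than rank 7376. The order of the genes by level was much the same in both lines, with Spearman's rho of 0.937 across the 55 genes, which are not independent replicates and share the libraries of each line. Between mean RPKM and summed exon length, rho was -0.296 in HPB-ALL and -0.282 in KOPTK1. As mean RPKM is itself divided by this length, a negative rho is partly built in. Together the factors took 0.756% of the summed CPM (counts scaled by library size) in HPB-ALL and 0.631% in KOPTK1.

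NCL and NPM1 were far above all other members. NCL encodes nucleolin, an RNA-binding protein of the nucleolus that acts from rDNA transcription to particle assembly, and NPM1 encodes nucleophosmin, a histone and ribosome chaperone that shuttles between nucleolus and cytoplasm. NCL had a mean RPKM of 242 in HPB-ALL, rank 81 of the protein-coding genes, and of 185 in KOPTK1, rank 126. NPM1 stood at 218 in HPB-ALL (rank 100) and at 215 in KOPTK1 (rank 93), so the leading gene was NCL in HPB-ALL and NPM1 in KOPTK1. These genes alone held 20.3% of the CPM of all the factors in HPB-ALL and 20.6% in KOPTK1. NPM1 has many processed pseudogenes, which share sequence with its mRNA. The tables list 49 NPM1 pseudogenes, with a summed 31.4 CPM in HPB-ALL and 39.5 CPM in KOPTK1, beside 567 and 562 CPM for NPM1 itself. DDX21, an RNA helicase that couples rDNA transcription to rRNA modification, was the third gene given to several roles here, with a mean RPKM of 74.6 and 58.9, behind GNL3 of the large subunit group in both lines.

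The RNA polymerase I group spread over a wide range. UBTF, the HMG-box protein that occupies active rDNA, had the highest level of the group, with a mean RPKM of 63.1 in HPB-ALL and 59.4 in KOPTK1. TCOF1, which encodes the nucleolar scaffold treacle, was at 39.5 and 37.7. RRN3, which brings the polymerase to the rDNA promoter, had 24.1 in HPB-ALL against 19.0 in KOPTK1. Per kilobase, the catalytic core of the enzyme was lower than its cofactors: POLR1A had a mean RPKM of 20.7 and 14.8, and POLR1B one of 10.8 and 9.22. UBTF thus stood 5.84 times above POLR1B in HPB-ALL and 6.45 times in KOPTK1. For POLR1A, the order rests on length, as its 12749 exon bases are the most of the 55 genes. Not scaled by length, POLR1A (264 and 189 CPM) was above RRN3 in both lines. It was above TCOF1 (226 and 216 CPM) in HPB-ALL only. POLR1B (58.5 and 49.9 CPM) remained the lowest of the group.

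Factors of the large subunit had a median RPKM of 34.8 for their 21 genes in HPB-ALL and of 25.6 in KOPTK1. GNL3, the nucleolar GTPase nucleostemin, led them at 85.9 and 70.8. Its relatives were lower, GNL2 with a mean RPKM of 48.1 and 35.5 and GNL3L with one of 43.7 and 39.3. RRP1B (57.8 and 46.6) exceeded its paralog RRP1 (21.4 and 15.7) in both lines. PES1 and WDR12, which work in a common complex with BOP1 on the precursor of 28S and 5.8S rRNA, did not have like levels per kilobase. PES1 had a mean RPKM of 39.3 in HPB-ALL, against 12.02 for WDR12, a ratio of 3.27, and in KOPTK1 they stood at 23.8 and 8.57, a ratio of 2.78. Not scaled by length, they were closer, at 116 and 97.4 CPM in HPB-ALL and 70.0 and 69.4 CPM in KOPTK1. Their summed exon lengths are 2941 and 8100 bases, so the ratios rest mostly on length. By mean RPKM, the lowest gene of the group was WDR12 in both lines. Of the remaining large subunit genes, EBNA1BP2 (53.4 and 36.7), FTSJ3 (42.9 and 34.1), DDX56 (40.7 and 31.5) and the 28S methyltransferase NOP2 (34.8 and 28.4) lay at or above the median of the group in both lines. MRTO4 (26.2 and 21.5), NOP16 (21.7 and 18.2) and NIP7 (20.6 and 15.8) were below its median in both lines. NOC2L and NOC3L, which form a complex on early pre-60S particles, were closer, at 32.9 and 22.1 in HPB-ALL and 25.6 and 18.8 in KOPTK1.

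Factors of the small subunit were lower, with a median RPKM of 24.8 for their 26 genes in HPB-ALL and of 18.5 in KOPTK1, although the ranges of both groups overlapped. NOL11 was the highest, with 48.3 in HPB-ALL against 53.6 in KOPTK1. It belongs to the UTP-A subcomplex, which binds the 5′ end of the nascent precursor. The other UTP-A genes ranged from UTP15 (11.9 and 9.69) and UTP4 (17.3 and 15.6) over HEATR1 (24.9 and 19.9) and WDR75 (33.6 and 23.3) to WDR43 (39.6 and 39.8). The highest UTP-A gene was 4.05 times the lowest in HPB-ALL and 5.53 times in KOPTK1. In the UTP-B subcomplex, UTP18 had a mean RPKM of 39.9 and 39.4, WDR36 one of 27.8 and 23.3, and WDR3 one of 10.3 and 8.46. Genes whose products work together in the processome thus differed in level per kilobase of listed exon in both subcomplexes. Not scaled by length, the order was another one. WDR3 (104 and 85.8 CPM) was above UTP18 (75.5 and 74.6 CPM), and HEATR1 (218 and 175 CPM) was above NOL11 (142 and 158 CPM). The lowest of the group was DDX10, an RNA helicase, at 9.52 in HPB-ALL, and in KOPTK1 it was WDR3. Enzymes and late-acting factors of this group lay between, such as the 18S methyltransferase EMG1 (13.7 and 11.1), the U3 protein RRP9 (26.6 and 18.4), the export factor RRP12 (19.2 and 13.0) and the cytoplasmic maturation factors LTV1 (25.4 and 23.6) and TSR1 (28.2 and 18.6). UTP14A, UTP20, BYSL, DCAF13, NOL6, NOL10 and DDX52 were between UTP14A at 25.4 and DDX52 at 17.3 in HPB-ALL, and between BYSL at 22.1 and UTP20 at 14.0 in KOPTK1. NOP14, NOC4L, IMP3 and IMP4 are given with the differences between the lines.

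The second comparison asked how far the lines differed in these genes. Across all 22430 genes whose mean RPKM reached 1 in each line, 48.1% had a higher level in HPB-ALL, and the median difference was -0.02 (log2, HPB-ALL minus KOPTK1). Of the 55 ribosome biogenesis factors, 49 were higher in HPB-ALL, with a median difference of 0.29, or 1.23-fold. Of the protein-coding genes that reached 1, to which all the factors belong, 58.1% were higher in HPB-ALL, with a median difference of 0.07. The tables were normalized separately, and since the columns of single libraries were not used, none of these differences was tested. Among the 7707 genes whose level reached 10 in each line, 57.2% were higher in HPB-ALL, and 60.9% of the protein-coding ones, against 45 of the 50 factors that reached this minimum. The ranks within each line, which do not depend on the scale of either table, were better in HPB-ALL for 44 of the 55. How many of all protein-coding genes ranked better in HPB-ALL was not counted, so this number has no background beside it. MYC lay on the other side, with an HPB-ALL level of 0.833 of that in KOPTK1. Its level includes the SHQ1 shRNA libraries, and the paper reports that SHQ1 depletion lowers MYC, so line and knockdown cannot be told apart here. The levels of the 55 factors and of SHQ1 also average both shRNA groups, so the same limit holds for their differences.

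The differences were small. At 1.5-fold or more in either direction, 20.4% of the genes that reached 1 and 9.73% of those that reached 10 differed between the lines, and 4 of the 55 factors did, or 7.27%. Of the protein-coding genes, 17.4% of those that reached 1 and 8.32% of those that reached 10 did. The share of the factors was near the latter. All 4 factors were higher in HPB-ALL, a direction in which 8.47% of the genes that reached 1 and 4.7% of those that reached 10 passed. Of the protein-coding genes, 1122 of 11763 and 299 of 6225 passed in that direction. No factor was 1.5-fold higher in KOPTK1, where 11.9% and 5.03% of all genes were. Of the protein-coding genes, 920 of 11763 and 219 of 6225 were. PES1 had the largest difference, 1.65-fold, with a mean RPKM of 39.3 in HPB-ALL and 23.8 in KOPTK1. NOC4L, which acts with NOP14 in the small subunit processome, was 1.55-fold higher in HPB-ALL (27.5 and 17.8), while NOP14 was at 37.7 and 39.1. The DEAD-box helicase DDX18 was 1.54-fold higher (47.1 and 30.5), and TSR1 1.51-fold (28.2 and 18.6). Just outside 1.5-fold was IMP4, a U3-associated protein, at 1.48-fold (26.0 and 17.5), whereas its partner IMP3 was at 10.7 and 10.4. These calls depended on the scale. With the tables centred on the median of the genes that reached 10, PES1 alone was past 1.5-fold and NOC4L, DDX18 and TSR1 were not, whereas centring on the genes that reached 1 gave 5 calls. No factor reached 2-fold.

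Only 6 of the 55 were lower in HPB-ALL. RRS1, which takes part in loading the 5S particle onto the large subunit, had the largest of these differences, -0.43 (log2), which is short of 1.5-fold. Its mean RPKM was 14.6 in HPB-ALL and 19.7 in KOPTK1. RRS1 is also the only factor whose exons form a single block in the tables. NOL11 had a difference of -0.15, NOL8 (22.9 and 23.99) one of -0.07, and NOP14 one of -0.05. DDX10, at -0.03, and WDR43, at -0.01, were nearly level, as were NPM1 (0.01), DDX52 (0.02), UTP18 (0.02) and IMP3 (0.05) on the other side. The signs of these small differences depended on the scale: WDR43 turned when the tables were centred on the median of the genes that reached 1, and NPM1, DDX52, UTP18 and IMP3 turned when they were centred on those that reached 10.

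By role, the median difference was 0.33 for the 21 large subunit genes, 0.27 for the 26 small subunit genes, 0.23 for the 5 RNA polymerase I genes and 0.34 for NCL, NPM1 and DDX21. Genes higher in HPB-ALL numbered 19, 22, 5 and 3 in these roles. Within the polymerase group, the core subunits POLR1A (0.48) and POLR1B (0.23) and the initiation factor RRN3 (0.34) had larger differences than UBTF (0.09) and TCOF1 (0.07). The quartiles of the differences were 0.11 and 0.40 for the factors, and -0.13 and 0.28 for the protein-coding genes that reached 10 in each line. The difference was nearly unrelated to summed exon length, with Spearman's rho of -0.0581 across the 55 genes.

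A further 69 genes of the same pathway that are not on the list, fixed as a comparison list, stood in a like range. Their median RPKM was 22.1 in HPB-ALL and 20.4 in KOPTK1, and 63 and 61 of them reached 10. Of the 69, 57 were higher in HPB-ALL, with a median difference of 0.19, and 1 passed 1.5-fold. This was PWP2, a scaffold of the UTP-B subcomplex, with 12.2 in HPB-ALL against 6.45 in KOPTK1. The largest difference on the other side was that of TEX10, a large subunit factor, at 15.9 and 21.8. Other UTP-B genes were TBL3 (10.7 and 7.68) and UTP6 (16.0 and 16.1), and the IMP3 and IMP4 partner MPHOSPH10 was at 23.99 and 20.4. NOLC1, a phosphoprotein that binds snoRNA particles, was at 86.0 and 72.7, above all listed factors except NCL and NPM1 in both lines. NOP53, which brings the exosome to the large subunit precursor, was the highest of these genes at 160 and 192.

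Several of the factors share exon bases with a neighbouring gene, which bears on how their reads were counted. The library kit does not mark strand, and the counting settings are not given in the sources used here. By the exon coordinates of the tables (GRCh38), 29 of the 55 share at least 1 exon base with another gene, on either strand, and 7 share over 20%. PPAN, a factor of large subunit maturation on chromosome 19 (10106289 to 10111294), shares 83.2% of its exon bases with the readthrough gene PPAN-P2RY11 on the same strand. IMP3 on chromosome 15 (75639085 to 75648706) shares 73.0%, all with genes on the opposite strand, among them SNX33. EMG1 shares 43.5%, LTV1 34.8%, BRIX1 25.03%, HEATR1 23.9% and TSR1 21.4%.

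If reads on shared bases were given to no gene, the level per unshared base applies, and the values of PPAN and IMP3 move most. For PPAN it was 165 in HPB-ALL and 145 in KOPTK1 instead of 27.8 and 24.3. IMP3 came to 39.7 and 38.5 instead of 10.7 and 10.4, which would move it from the lowest factors to the upper range. Whether the reads were counted in that way was not tested. PPAN-P2RY11 was listed at 51.5 CPM in HPB-ALL and 44.8 CPM in KOPTK1, close to the 48.3 and 42.3 CPM of PPAN. The difference between the lines does not depend on which length is used, as the same length enters both tables.

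**Figure D1:**
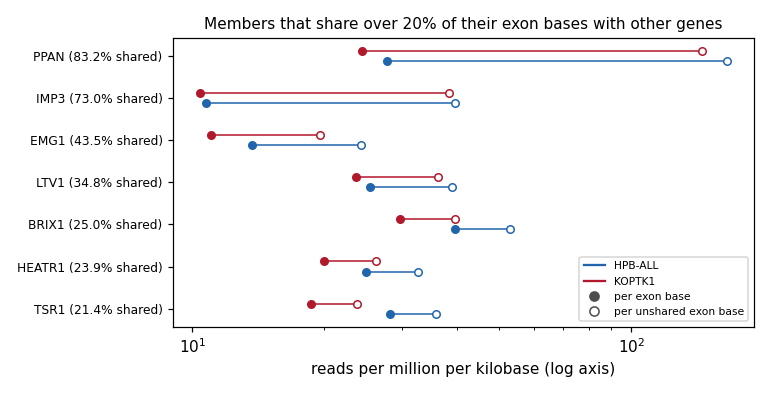
Mean RPKM of the 7 genes that share over 20% of their exon bases, per exon base (filled) and per unshared exon base (open), in HPB-ALL (blue) and KOPTK1 (red), on a log axis. PPAN moves from below 30 to 145 or more, IMP3 from about 10 to nearly 40, and the other 5 move less.

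What the promoters of these genes share was read from RefSeq windows (GRCh38.p14) of 250 bases before to 50 bases after an annotated start site. Such windows were given for 47 of the 55 genes, some with several start sites, 56 windows in all. The windows were searched for the E-box CACGTG, which is its own reverse complement and is the site that MYC and its partner MAX are known to bind, as other factors do. Among protein-coding genes with a window, 10.9% held it in at least 1 window, and 13.4% of those that reached 10 in each line. It was in a window of 20 of the 47 ribosome biogenesis genes, or 42.6%. Counted over windows, 21 of 56 held it, where 8.34% of all protein-coding windows did. Median GC content differed little, at 63.8% against 62.3%, and the windows held a median of 26.5 CpG dinucleotides against 21. The quartiles of the CpG count were 20 and 33 against 7 and 31, so windows poor in CpG were more common among all protein-coding windows. CACGTG itself holds a CpG, and windows of like CpG count were not compared. A match of letters is no sign of binding, which was not measured here.

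The copies lay close to the start site. Of 23 copies in the windows, 10 began within the first 20 transcribed bases. Of the copies in all protein-coding windows, 5.44% began there. This stretch was chosen after the positions were seen. The 10 genes are shown here with 12 bases on either side, 5′ to 3′ on the strand of the gene, with the E-box in capitals. They are printed because the bases around the E-box can be compared directly.
PES1 (chr22:30591880-30591909, minus strand): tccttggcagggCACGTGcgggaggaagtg
GNL2 (chr1:37595917-37595946, minus strand): gtacgtcgtgcaCACGTGgtccggcgtggt
GNL3 (chr3:52686026-52686055, plus strand): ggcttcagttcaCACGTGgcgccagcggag
MRTO4 (chr1:19251807-19251836, plus strand): cgtcttccgccgCACGTGgattcagcgcga
NOC3L (chr10:94362903-94362932, minus strand): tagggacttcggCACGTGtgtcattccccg
NOP14 (chr4:2963374-2963403, minus strand): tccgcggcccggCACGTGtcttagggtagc
NOL6 (chr9:33473894-33473923, minus strand): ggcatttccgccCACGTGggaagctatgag
IMP4 (chr2:130342900-130342929, plus strand): ttctcccggaccCACGTGgaagcggcactc
UTP18 (chr17:51260538-51260567, plus strand): gcagcgaggttcCACGTGagcgcctgcgtt
WDR43 (chr2:28894658-28894687, plus strand): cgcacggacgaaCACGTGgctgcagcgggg

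**Figure D2:**
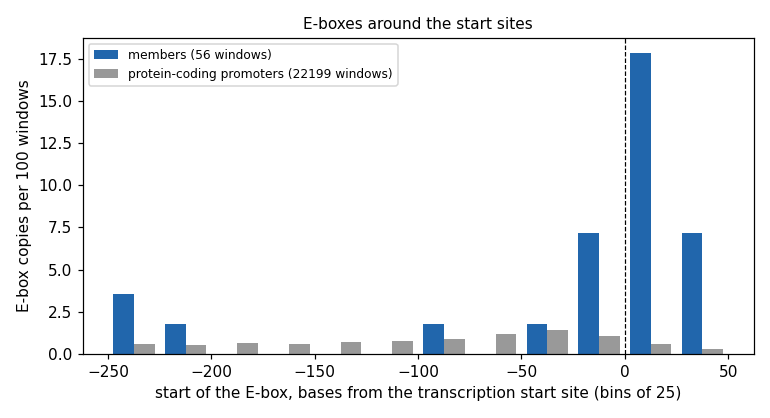
Copies of the E-box per 100 promoter windows against the position of its first base from the start site (dashed line), in bins of 25 bases, for the 56 windows of ribosome biogenesis genes (blue) and 22199 windows of protein-coding genes (grey). The blue bars peak just after the start site at 17.9 copies per 100 windows, where the grey bar is at 0.608.

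By median level, genes with the E-box were below those without in HPB-ALL and above them in KOPTK1, and neither difference was tested. The 20 genes with it had a median RPKM of 26.4 in HPB-ALL and 23.7 in KOPTK1, and the 27 without it 27.5 and 19.0. The median difference between the lines was 0.28 with the E-box, where 17 of 20 were higher in HPB-ALL, and 0.32 without, where 25 of 27 were. PES1, with the largest difference of all, and WDR43, with nearly none, both hold a copy within the first 20 bases. NCL and NPM1 have no CACGTG in their windows.

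Many of the genes also stand head to head with another gene. Among all protein-coding genes, 11.6% have the 5′ end of a protein-coding gene of the opposite strand within 1000 bases of their own in the tables, and 19.2% of those that reached 10 in each line. This was so for 25 of the 55 ribosome biogenesis factors, or 45.5%. By these 5′ ends, the closest pairs were TSR1 with SGSM2 at 5 bases, WDR12 with CARF at 12 and MRTO4 with EMC1 at 13. The distance was taken in either direction, so pairs whose 5′ ends overlap are included. WDR12 and CARF share 13 exon bases, and MRTO4 and EMC1 share 14. How many of the 25 overlap in this way was not counted. The 5′ end here is the outermost exon base listed for a gene, not the RefSeq start site used for the promoter windows. The windows of TSR1, WDR12 and MRTO4 do not reach it: that of TSR1 spans 2336408 to 2336707, and its 5′ end is 2337507. Distances between RefSeq start sites were not computed. NOC4L faces another ribosome biogenesis gene, the helicase gene DDX51 of the comparison list, at 113 bases. In their gene bodies, the factors had a median of 15 exon blocks and from 1 (RRS1) to 62 (UTP20), against a median of 11 among protein-coding genes that reached 10 in each line.

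Introns of 6 of the factors hold snoRNA genes, which are released when the host transcript is spliced. The tables list 16 such genes on the strand of the host, 2 of the H/ACA class and 14 of the C/D class. GNL3 holds 5, NCL and WDR43 hold 3 each, PPAN and TSR1 hold 2 each, and NOL11 holds 1. H/ACA snoRNAs guide pseudouridylation and are the RNAs whose particles need SHQ1, whereas C/D snoRNAs guide 2′-O-methylation. NCL carries both classes, and its 3 snoRNAs are printed here 5′ to 3′ as transcripts of GENCODE release 44. Capitals mark the ACA at 3 bases from the 3′ end in the H/ACA RNA, and the TGATGA (C box) and CTGA (D box) in the C/D RNAs.
SNORA75: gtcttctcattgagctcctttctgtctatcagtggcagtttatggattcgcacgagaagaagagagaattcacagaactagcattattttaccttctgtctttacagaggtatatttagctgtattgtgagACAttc
SNORD20: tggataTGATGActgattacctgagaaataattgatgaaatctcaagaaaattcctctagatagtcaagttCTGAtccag
SNORD82: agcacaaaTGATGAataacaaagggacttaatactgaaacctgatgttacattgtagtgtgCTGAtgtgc

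Per kilobase, the listed level of each of the snoRNA genes was below that of its host in both lines. These levels do not measure mature snoRNA. Reads of unspliced host transcripts would fall on the same bases, and how well the libraries kept such short RNAs was not tested. Their mean RPKM ranged from 2.52 to 29.9 in HPB-ALL and from 2.46 to 28.1 in KOPTK1. Not scaled by length, the levels ranged from 0.199 to 2.74 CPM in HPB-ALL and from 0.290 to 2.97 CPM in KOPTK1, with medians of 0.908 and 1.12. SNORA75 was the highest on that scale, at 2.74 and 2.97 CPM, and had a mean RPKM of 19.98 and 21.7 where its host NCL had 242 and 185. SNORA38B, the other H/ACA RNA, lies in NOL11 and was at 0.675 and 1.08 CPM. SNORD20 stood at 1.79 and 1.55 CPM, and SNORD82 at 0.880 and 0.730 CPM. The RNAs of NCL are 137, 80 and 70 bases long in the order of SNORA75, SNORD20 and SNORD82.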

How the data were processed

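Gene-level values of 12 RNA-Seq libraries were deposited as 1 table per cell line. The authors computed the average log2 CPM over the 6 libraries of a line, and each table was normalized separately. The submitters' processing notes name hg38, Trimmomatic 0.36, STAR 2.5.4b, Picard 2.18.7, featureCounts 1.6.2 and edgeR 3.22.3. The methods give hg19 and Bowtie 2 for the splicing analysis. By coordinates, all 55 matched genes overlapped their RefSeq position in GRCh38 and 6 in GRCh37.

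The tables hold 12 per-library columns whose numeric headings correspond to none of the labels, and these columns were not used. Fold changes, F statistics, p-values and FDR of the authors' own comparison were not used either. The planned tests of SHQ1 shRNA against control shRNA, and the variants of them, could therefore not be run, and the depth per library is not given. The lowest log2 CPM listed, -4.36 in HPB-ALL and -3.90 in KOPTK1, lies far below the 55 genes, the lowest of which had 21.7 CPM, but closer to some of the snoRNA genes and lineage markers.

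For mean RPKM, the average log2 CPM was taken out of log scale and scaled to 1000 bases of the exon length given in the tables. Differences between the lines were taken on the log2 scale and called at 1.5-fold, with no test. A symbol was found for 95.9% of the identifiers. Gene types came from GENCODE release 44, by identifier. The genes, roles, comparison list and markers were chosen with earlier results of these data known. The rule for naming genes took the highest and lowest of each role, with SHQ1 and MYC; its parts on fold changes after knockdown could not be applied, and other genes were named after their values were seen. The fold call was tested on simulated shifts of the HPB-ALL values, and the joining of exons and the motif search on made-up examples. The other steps had no such test. Python 3.11.15 with numpy 2.4.6, pandas 2.3.3 and matplotlib 3.10.9 was used.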

Additional observations from a re-analysis of the deposited data

How the results depend on the processing

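No test stands behind these values, which rest on 1 average per line, and the alternatives were chosen after the data were seen. Centring the tables on the median of the genes whose mean RPKM reached 1 in each line gave a median difference of the 55 factors of 0.31 (log2, HPB-ALL minus KOPTK1), where the tables as deposited gave 0.29. Centring on those that reached 10 gave 0.24, 45 factors higher in HPB-ALL and 1 factor past 1.5-fold (PES1), where the deposited scale gave 4. CPM recomputed without the 100 highest genes of each line gave 0.28, the factors that reached 10 in each line 0.30, and factors that share at most 20% of their exon bases 0.29. The factors higher in HPB-ALL numbered 45 to 50 of 55 under the 3 other scalings, 45 of the 50 that reached 10, and 42 of the 48 that share at most 20%. The planned levels over the control libraries alone, and all variants of the knockdown comparison, were not run. No paired analysis was possible because the columns of single libraries carry no replicate number that a label gives.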
